A study of Mus musculus with 2 samples.

Results

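The regions described here lay in 4 windows of the mouse genome (build mm9) named for 5 cell cycle genes: Cdkn1a, Cdkn1b, Cdkn2a with Cdkn2b, and Ccnd1. They were chosen by position alone, as every listed region that overlapped a window by at least 1 base. This gave 28 of the 61400 regions that held more histone H4 tags in cells given SAHA than in cells given DMSO. Of the 28, 19 lay in the Ccnd1 window, 5 in the Cdkn1b window, 4 in the Cdkn1a window and 0 in the window of Cdkn2a and Cdkn2b. The windows were chromosome 17, 29190000 to 29270000, for Cdkn1a, chromosome 6, 134830000 to 134920000, for Cdkn1b, chromosome 4, 88880000 to 89000000, for Cdkn2a and Cdkn2b, and chromosome 7, 152060000 to 152260000, for Ccnd1. The place of each gene inside its window was not looked up, because no mm9 annotation was used here, so no region is called a promoter, an exon or an intron.

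The 5 genes act on the same step of the cell cycle. Cyclin D1, the product of Ccnd1, activates the kinases Cdk4 and Cdk6, which phosphorylate the retinoblastoma protein and so release the cell into S phase. Cdkn1a and Cdkn1b encode p21 and p27, inhibitors of the Cip/Kip family that bind cyclin and kinase complexes, above all those of Cdk2. Cdkn2b encodes p15INK4b, and Cdkn2a encodes p16INK4a and, from another start site, p19ARF; the INK4 proteins bind Cdk4 and Cdk6, while p19ARF stabilises p53. Cdkn1a is a textbook target of p53, and induction of its transcript is a well known response of cultured cells to inhibitors of histone deacetylases. Osteoblasts leave the cell cycle as they mature, and p21 and p27 are among the inhibitors that act at this exit.

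The start sites of the inhibitor genes are shown because the windows are named for these genes, and because windows with and without regions can be set beside their sequences. RefSeq's promoter table held 6 start sites for 4 of the 5 genes (Cdkn1a, Cdkn1b, Cdkn2a and Cdkn2b), each as 250 bases before to 50 bases after the start. Coordinates of these sequences are in build GRCm38.p6, not mm9, on the plus strand for Cdkn1a and Cdkn1b and on the minus strand for Cdkn2b. The sequences were not placed on the mm9 regions. Capitals mark GGGCGG or its reverse complement CCGCCC, the GC box read by Sp1 family factors, and ACATGT, which is its own reverse complement and holds the CATG core of a p53 half-site.
Cdkn1a upstream start (chr17:29090729-29091028): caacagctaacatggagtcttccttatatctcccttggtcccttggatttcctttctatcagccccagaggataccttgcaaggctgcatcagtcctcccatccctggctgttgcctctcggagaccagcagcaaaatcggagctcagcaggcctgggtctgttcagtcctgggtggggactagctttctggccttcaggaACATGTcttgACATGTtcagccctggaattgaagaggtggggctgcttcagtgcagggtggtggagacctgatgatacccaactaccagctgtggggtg
Cdkn1a downstream start (chr17:29093519-29093818): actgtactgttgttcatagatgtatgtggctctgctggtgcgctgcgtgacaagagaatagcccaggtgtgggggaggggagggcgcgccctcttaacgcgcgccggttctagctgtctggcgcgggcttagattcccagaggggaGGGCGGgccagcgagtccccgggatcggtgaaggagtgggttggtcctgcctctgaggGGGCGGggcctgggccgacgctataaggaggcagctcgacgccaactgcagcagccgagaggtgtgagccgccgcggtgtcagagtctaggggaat
Cdkn1b (chr6:134920151-134920450): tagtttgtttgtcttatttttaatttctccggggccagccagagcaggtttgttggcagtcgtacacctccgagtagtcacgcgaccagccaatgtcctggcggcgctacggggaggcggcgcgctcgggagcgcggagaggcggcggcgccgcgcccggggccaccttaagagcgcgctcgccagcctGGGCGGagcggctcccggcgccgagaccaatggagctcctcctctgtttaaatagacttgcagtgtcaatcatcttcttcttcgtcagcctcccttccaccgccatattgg
Cdkn2b (chr4:89310983-89311282): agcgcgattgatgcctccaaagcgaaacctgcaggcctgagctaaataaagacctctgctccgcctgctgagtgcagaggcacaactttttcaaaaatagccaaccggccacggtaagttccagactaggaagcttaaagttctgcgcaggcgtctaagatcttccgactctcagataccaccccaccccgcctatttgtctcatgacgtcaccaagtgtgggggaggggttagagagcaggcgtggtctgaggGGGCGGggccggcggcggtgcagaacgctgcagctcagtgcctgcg

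The downstream start of Cdkn1a held 2 GC boxes and 0 copies of ACATGT. The upstream start held 0 GC boxes and 2 copies of ACATGT. Cdkn1b and Cdkn2b held 1 GC box each. The start sites of Cdkn2a, not printed, held 3 GC boxes upstream and 1 downstream. Among all 32851 promoters of the table, 35.7% held at least 1 GC box, 19.5% at least 2 and 10.7% at least 3. At least 2 copies of ACATGT were found in 0.329% of them. These matches describe the letters in the windows and show no binding. In RefSeq's gene order Cdkn1a lies between Trp53cor1, a long noncoding RNA gene, and Rab44. Cdkn1b is followed by the noncoding gene Lockd, Cdkn2a and Cdkn2b flank Gm12610, and Ccnd1 lies between LTO1 and Gm46023.

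The data came from chromatin immunoprecipitation followed by sequencing (ChIP-seq) in MC3T3 sc4 cells, an established osteoblast line from mouse calvaria. Cells of both groups were kept in osteogenic medium, and on day 4 they received either 20 µM SAHA, an inhibitor of histone deacetylases, or its solvent DMSO for 2 hours. Either agent was also present during the 40 min of collagenase digestion that followed. The labels name the antibody only as Histone H4, and the series' design text calls the target acetylated H4. Each group was 1 library of 1 cell line. The SAHA library kept 123676661 of 126938706 tags (97.4%) after the authors' duplicate limit and the DMSO library 76214516 of 116209155 (65.6%), so a DMSO tag weighed 1.62 SAHA tags. There were no replicates. Every difference is therefore one between these 2 libraries, without a test, and the intervals below cover counting error only. The list holds regions higher in SAHA, and the opposite direction was not analysed here. Whether the cells carry osteoblast marker levels cannot be read from such a list and was not checked.

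The Ccnd1 window was the most densely covered of the 4. It held 95 regions per Mb, and 32.1% of its 200 kb was covered by regions. The Cdkn1b window had 55.6 regions per Mb and 7.72% covered, and the Cdkn1a window 50.0 per Mb and 4.27% covered. The window of Cdkn2a and Cdkn2b had none. The whole chromosomes carried 23.9 regions per Mb (chromosome 7), 19.8 (chromosome 6), 27.5 (chromosome 17) and 24.6 (chromosome 4), with 4.98%, 5.03%, 6.70% and 5.24% of their spans covered. By covered share the Ccnd1 window thus stood above its chromosome, the Cdkn1b window also above, and the Cdkn1a window below. For Cdkn1b and Cdkn1a this direction turned with the window: Cdkn1b had 3.30% with regions wholly inside and 1.87% in a window 0.5 times as wide, and Cdkn1a had 22.9% in a window 2 times as wide.

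**Figure D1:**
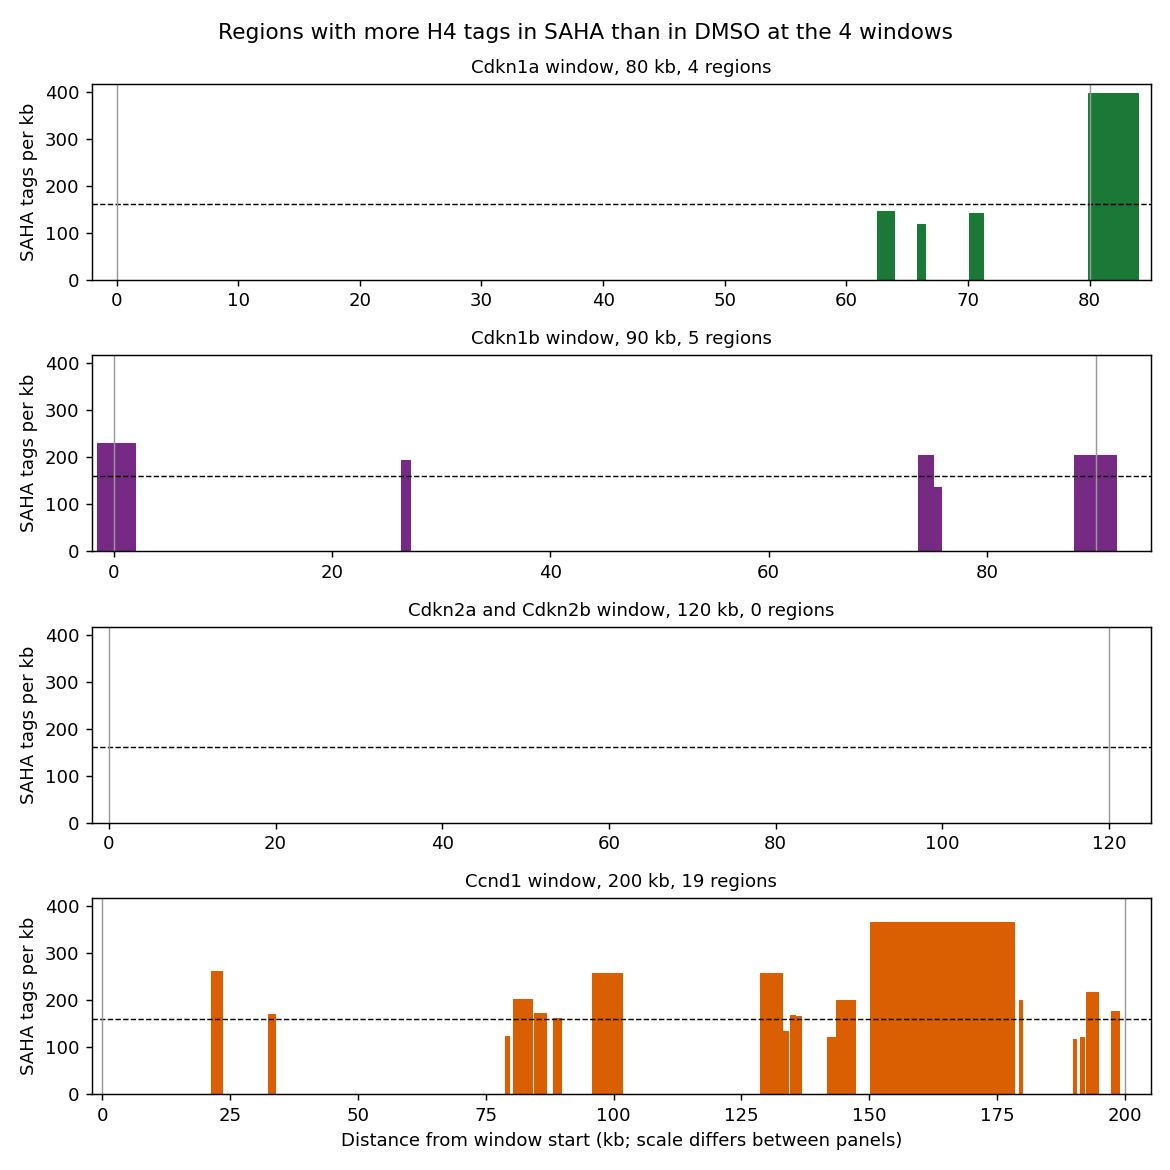
Each panel shows 1 window, with distance from the window start in kb on the x axis and SAHA tags per kb of region on the y axis. Bars are regions drawn to scale, grey lines are the window edges and the dashed line is the median of all 61400 regions (160.1 tags per kb). The Cdkn1a regions sit at the right end, the window of Cdkn2a and Cdkn2b is empty, and the Ccnd1 window holds 1 region of 28.1 kb.

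3 kinds of value are given for a region. The tags are SAHA tags counted in it, with a 95% Poisson interval. The fold is the authors' value, the highest SAHA point of the region over the local DMSO background. The ratio sets all SAHA tags of the region against the local DMSO level that gives the authors' score, at SAHA depth. That level is the highest of the backgrounds the authors' caller is known to use, so where it matched such a background the ratio is a lower limit, and elsewhere it is approximate. It matched in 24 of the 28 regions. Orders, medians and counts by ratio are those of these recovered values and do not fix the order of the true ratios. Regions are lettered along the chromosome within each window.

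At Cdkn1a, no region higher in SAHA was listed over the first 62.5 kb of the 80 kb window, and the 4 regions lay in its last part. 3 of them were modest in SAHA tags per kb. Region A, 29252483 to 29253925, held 212 SAHA tags (interval 184 to 243), or 146.9 per kb, against a DMSO level of about 76.9 per kb. Its ratio was about 1.91 and its fold 4.10. Region B, 681 bp long, held 80 tags, or 117 per kb, against at most 67.5 per kb in DMSO. Region C held 168 tags, or 141 per kb, against at most 99.0 per kb. Its fold of 2.87 was the lowest of the 28 regions, and its ratio was at least 1.42. All 3 had fewer SAHA tags per kb than the median region of the list (160.1).

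Region D of the Cdkn1a window stood apart from the other 3 in SAHA tags and tags per kb. Its recovered ratio was close to that of region A (about 1.91). It spans 29269901 to 29273999 and overlaps the window by only 100 of its 4099 bp, so nearly all of it lies outside. It held 1628 SAHA tags (interval 1550 to 1709), or 397 per kb, which is 6.01 times the genome average. DMSO reached at most 203 tags per kb, or 3.07 genome averages. SAHA was thus at least 1.96 times DMSO (interval 1.86 to 2.06 from the SAHA tags alone, without the counting error of DMSO). It ranked 2980 of 61400 by tags. Region D supplied 78.0% of the tags of the Cdkn1a regions. Without it the pooled density fell from 282 SAHA tags per kb to 139, over 460 tags in 3317 bp. The next region outside the window on this side began 4.30 kb past its end, and on the other side the nearest ended 12.0 kb before its start with 1089 tags.

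At Cdkn1b, 5 regions were spread over the window, and the 2 largest crossed its edges. Region A, 134828478 to 134831936, held 794 SAHA tags (interval 740 to 851), or 229.5 per kb, against at most 162 per kb in DMSO. Region E, 134917963 to 134921879, held 799 tags, or 204 per kb, against about 123 per kb. The ratio was at least 1.41 for A and about 1.66 for E. The DMSO level was at most 2.45 times the genome average under A and about 1.86 times under E. The 46.5 kb between regions B and C held no listed region.

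Region B of the Cdkn1b window was shorter. This region of 840 bp, 134856324 to 134857163, held 163 SAHA tags (interval 139 to 190), or 194 per kb, against at most 75.3 per kb in DMSO. The ratio was at least 2.58 (interval 2.20 to 3.0 from the SAHA tags alone), the highest recovered among the Cdkn1a and Cdkn1b regions. The fold was 4.90. Regions C and D lay 31 bp apart, with 278 and 105 SAHA tags. Region C had the lowest recovered ratio of the Cdkn1b window, at least 1.34, with 205 SAHA tags per kb against at most 153 per kb in DMSO. The nearest region before the window ended 2.31 kb from its start, and the nearest after it began 53 kb past its end.

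At Cdkn2a and Cdkn2b, 0 regions were listed in 120 kb. The nearest on the left, 88761503 to 88762672, ended 117 kb before the window with 164 SAHA tags and a fold of 2.83. The nearest on the right, 89169997 to 89171348, began 170.0 kb after it with 246 tags and a fold of 3.81. The stretch without a listed region between them was 407 kb long. On chromosome 4 the median gap between neighbouring regions was 2.92 kb, and 54 of 3742 gaps (1.44%) were as long or longer. These 54 gaps together made up 52.5% of the chromosome span, so a point on the chromosome often falls into one.

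An empty window says only that no stretch passed the authors' cutoff. By the Poisson test on whole regions, a stretch of 1337 bp, the median length of the list, at the genome average DMSO level of 66.1 tags per kb needed 131 SAHA tags, a ratio of 1.48. A stretch of 500 bp needed 60 tags, a ratio of 1.81, and one of 5000 bp needed 411 tags, a ratio of 1.24. Smaller rises at such a DMSO level could not be listed at this depth. These are the least values from this test alone, and other steps of the caller were not modelled. The test asked for 98.0 tags per kb at 1337 bp and 82.2 at 5000 bp. In the list, the 117 tags per kb of Ccnd1 region P already stood at percentile 3.55. Larger rises may therefore also have gone unlisted. The list gives no tags outside its regions, so the SAHA and DMSO levels over Cdkn2a and Cdkn2b are not known from it.

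At Ccnd1, 19 regions held 17617 SAHA tags over 64.1 kb, and all 19 lay wholly inside the window. Split at gaps of more than 10 kb, a limit chosen after the positions were seen, they formed 4 groups. The first, regions A and B, spanned 12.5 kb and had the highest median ratio, 2.59, and a median fold of 5.83. After 45.1 kb without a region, the second group (C to G) covered 62.6% of 22.8 kb with a median ratio of 1.85. After a further 27.2 kb the third group (H to O) covered 80.7% of 51.1 kb with 12881 SAHA tags. The fourth group (P to S) spanned 9.10 kb and had a median ratio of 1.93. Beyond the window, the next region began 4.57 kb past its end, while on the other side the nearest lay 95 kb away.

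Region N of the Ccnd1 window ranked 2 by length in the whole list. It spans 152210154 to 152238244, or 28.1 kb, and the longest listed region was 36.1 kb. It held 10269 SAHA tags (interval 10071 to 10470), rank 5 of the list, and 366 tags per kb. Its summit lay 23.9 kb from its left end, and its fold there was 9.03, rank 318 of 61400. The recovered local DMSO level, however, was about 332 tags per kb, or 5.02 genome averages. Against it the SAHA tags of the whole region gave a ratio of about 1.10 (interval 1.08 to 1.12 from the SAHA tags alone). Only 68 regions of the list had a lower recovered ratio. The level matched no background of the caller, so the ratio is approximate and the error of the level is not known. The same combination was found in the other long regions: the 24 regions over 20 kb, region N included, had a median fold of 7.98, and the 22 with a recovered level had a median ratio of 1.16. Region N made up 58.3% of the SAHA tags and 43.8% of the covered bases at Ccnd1. Without it the pooled density fell from 275 to 204 tags per kb and the covered share from 32.1% to 18.0%.

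The other 18 regions of the Ccnd1 window had ratios from 1.51 to 2.73 and SAHA densities from 117 to 261 tags per kb. Region R, 152252351 to 152254662, had the highest recovered ratio of all 28 regions. It held 501 SAHA tags (interval 458 to 547), or 217 per kb, against at most 79.5 per kb in DMSO, a ratio of at least 2.73 and a fold of 6.15. Its deposited FDR, described below, was 100%, as was that of region A. Region A, 152081208 to 152083346, had a recovered level that equalled a whole number of DMSO tags in the region itself. There 559 SAHA tags stood against 133 DMSO tags, or 216 after scaling, a ratio of 2.59 (95% exact binomial interval 2.14 to 3.15). Region K was the other with a DMSO count of its own, with 154 SAHA tags against 44 DMSO tags, a ratio of 2.16 (interval 1.53 to 3.09). At regions B, J and Q the DMSO background used was the genome average itself. Region B held 171 SAHA tags per kb, a ratio of at least 2.59, and region J held 169 per kb, a ratio of at least 2.55. Region Q held only 122 per kb, a ratio of at least 1.84.

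Regions G, D and H at Ccnd1 were long and rich in tags, each with a deposited FDR of 100%. Region G, 152155709 to 152161561, held 1506 SAHA tags, or 257 per kb, against at most 136 per kb in DMSO, and its fold of 6.87 was the highest at Ccnd1 after region N. Region D, 152140344 to 152143948, held 734 tags, or 204 per kb, against at most 81.1 per kb. Its ratio was at least 2.51 and its fold 4.89, while the ratio of region G was at least 1.89. Both are lower limits, which do not fix their order. Region H held 1092 tags at a density of 258 per kb, close to that of region G, with a ratio of at least 1.77. Region F had the lowest recovered ratio after region N, at least 1.51, with a fold of 3.0. The weakest call was region P, with 66 SAHA tags and a score of 50.40 against a cutoff of 50.

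**Figure D2:**
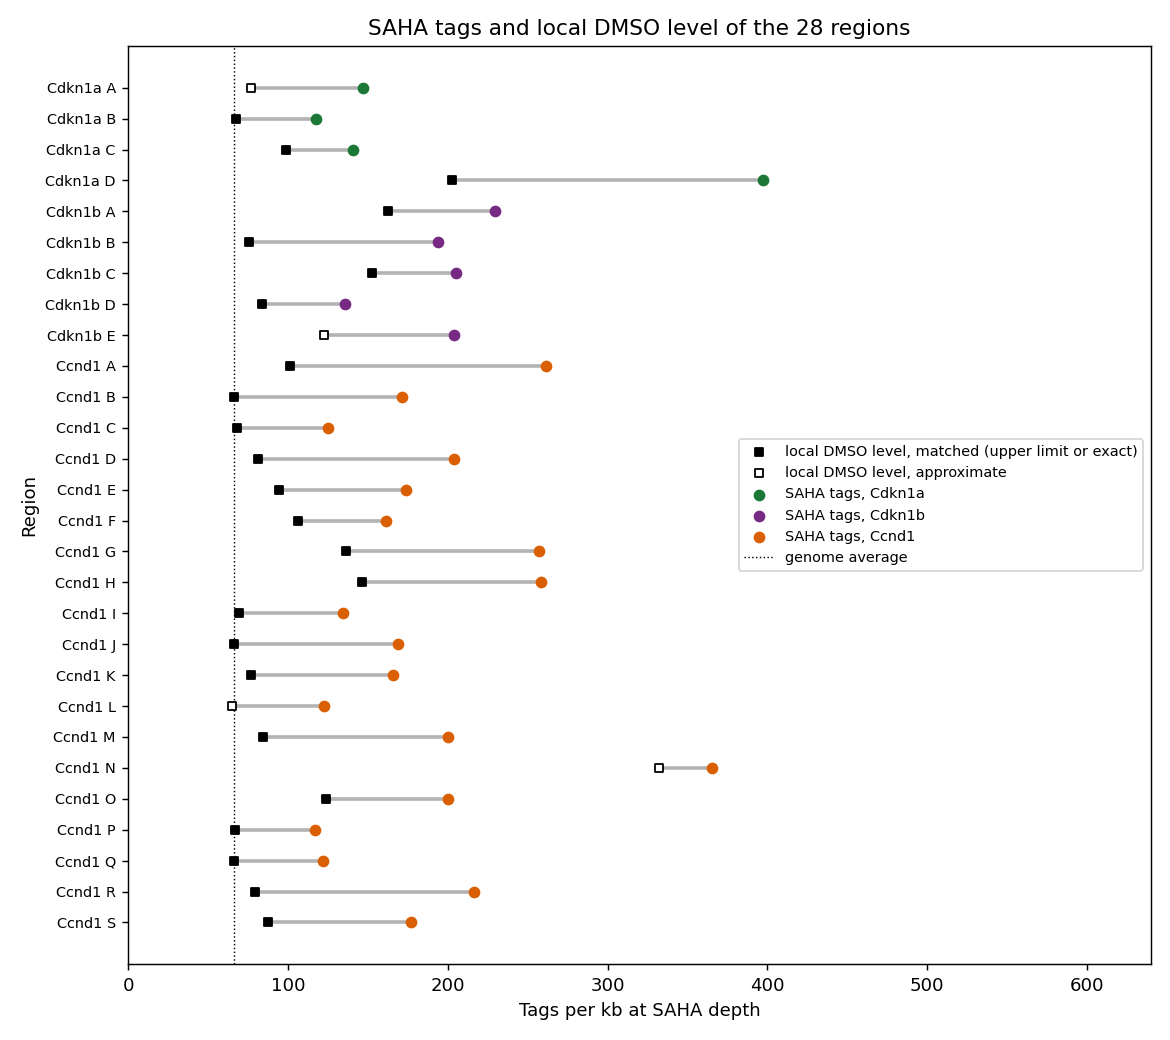
Each line is 1 of the 28 regions, with tags per kb at SAHA depth on the x axis. Coloured circles are SAHA tags, filled squares are local DMSO levels that matched a background of the caller, open squares are approximate levels and the dotted line is the genome average (66.1 tags per kb). SAHA lies above the DMSO level in all 28 regions, as the list requires, with the shortest line relative to its level at Ccnd1 region N (366 against about 332).

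All regions with a fold of at least 5 lay at Ccnd1, though Cdkn1b B (4.90) and Cdkn1a D (4.83) came just under this limit. A fold of at least 5 was found in 8 of the 19 Ccnd1 regions, 0 of 5 Cdkn1b regions and 0 of 4 Cdkn1a regions, against 19.0% of all listed regions. A ratio of at least 2 was found in 8 of 19, 1 of 5 and 0 of 4, against 28.0% of the 61106 regions with a recovered level. At Ccnd1, 6 of 19 regions passed both limits, against 14.0%. A score of at least 100 was reached by 14 of 19, 3 of 5 and 2 of 4 regions, against 62.5%. The deposited FDR was 100% in 6 Ccnd1 regions (A, D, G, H, M and R) and in Cdkn1a region D, against 11.6% of the list. In the rest of the 28 it ran from 58.27% (Ccnd1 L) to 81.67% (Cdkn1b E), so none had a low FDR. An FDR of 100% belongs to high scores here, since no region with a score under 557.07 was given it. As this caller is known to define it, the FDR counts calls made with SAHA and DMSO exchanged, so at those scores at least as many such calls were made. Neighbouring regions share their chromatin and are no replicates, and with so few regions at Cdkn1a and Cdkn1b these counts do not show that the windows differ.

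The median ratio was 1.89 at Ccnd1 (range 1.10 to 2.73), 1.83 at Cdkn1a (range 1.42 to 1.96) and 1.63 at Cdkn1b (range 1.34 to 2.58), against 1.80 over the list. The ranges overlapped. By pooled density the order was different, with 282 SAHA tags per kb at Cdkn1a (interval 270 to 294), 275 at Ccnd1 (interval 271 to 279) and 207 at Cdkn1b (interval 198 to 216). The first 2 values each rest on a single region, D at Cdkn1a and N at Ccnd1. The median density over regions was 204 tags per kb at Cdkn1b, 174 at Ccnd1 and 144 at Cdkn1a. The median length was 1318 bp at Cdkn1a, 1357 bp at Cdkn1b and 1588 bp at Ccnd1, close to the 1337 bp of the list. Median folds were 3.89, 3.74 and 4.13, against 3.93.

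The recovered DMSO level was under 1.5 times the genome average in 18 of the 28 regions, of which 13 were at Ccnd1, against 65.0% of the 61106 regions with a recovered level. The share in the 28 is near that of the list. The level exceeded 2 times the average in 2 of 5 Cdkn1b regions, 3 of 19 Ccnd1 regions and 1 of 4 Cdkn1a regions, against 16.1%. These were Cdkn1a D, Cdkn1b A and C, and Ccnd1 G, H and N. Their recovered ratios ran from 1.10 to 1.96. In 5 of the 6, all but Ccnd1 N, the level is an upper limit and the ratio a lower limit, so ratios of 2 or more are possible there. The level of Ccnd1 N matched no background, so how far its ratio lies from the true one is not known.

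**Figure D3:**
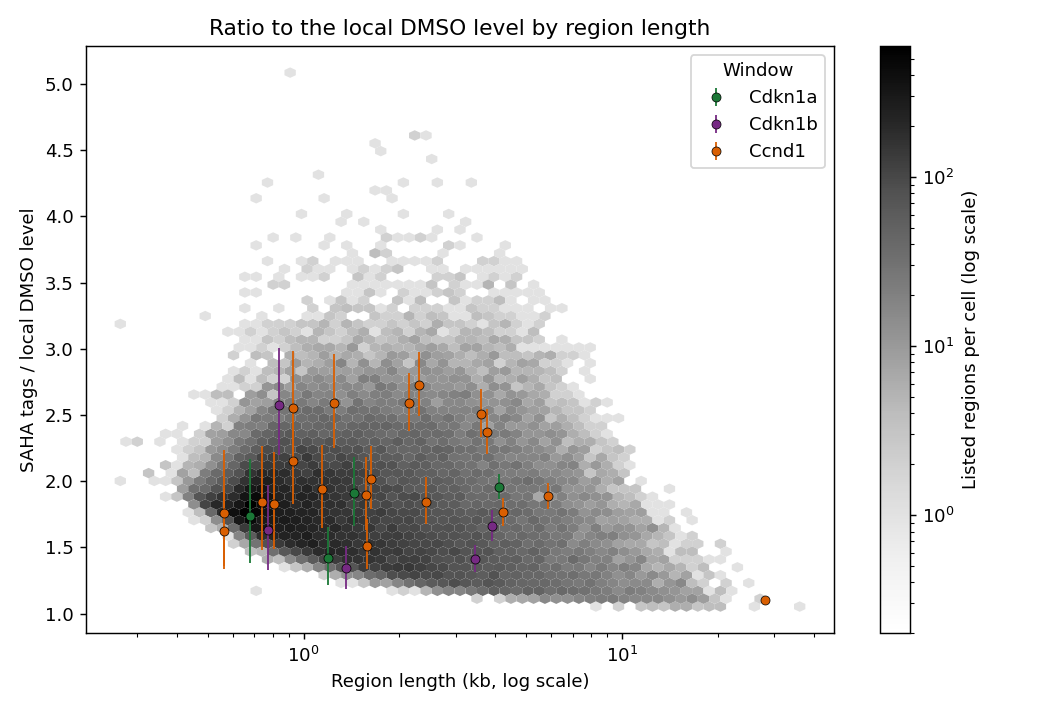
Region length in kb is on the x axis (log scale) and the ratio (SAHA tags over the DMSO level recovered for the region) on the y axis. Grey cells count all regions with a recovered level, coloured points are the regions of the 3 windows and bars are 95% Poisson intervals of the SAHA tags. Ccnd1 region N lies at the far right near a ratio of 1.10, and Ccnd1 region R is the highest of the coloured points at 2.73.

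Each window was then set against adjoining windows of its own size on the same chromosome. For Ccnd1, 339 of 744 windows of 200 kb on chromosome 7 (45.6%) held at least 1 region, 66 (8.87%) held 19 or more, and 24 (3.23%) were covered to the same degree or more. The highest count was 46 regions. For Cdkn1b, 39.4% of 1620 windows of 90 kb held at least 1 region and 254 (15.7%) held 5 or more. For Cdkn1a, 46.3% of 1073 windows of 80 kb held at least 1 region and 259 (24.1%) held 4 or more, while 33.2% were covered to the same degree or more. For Cdkn2a and Cdkn2b, 45.5% of 1266 windows of 120 kb held at least 1 region, so an empty window was the more common kind: 690 of them (54.5%) held 0. The Ccnd1 window was therefore the one with the smallest share of richer or equal windows. In windows 2 times as wide, 44.9% of those on chromosome 4 were empty, so there an empty window, as at the INK4 genes, was no longer the more common kind.

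**Figure D4:**
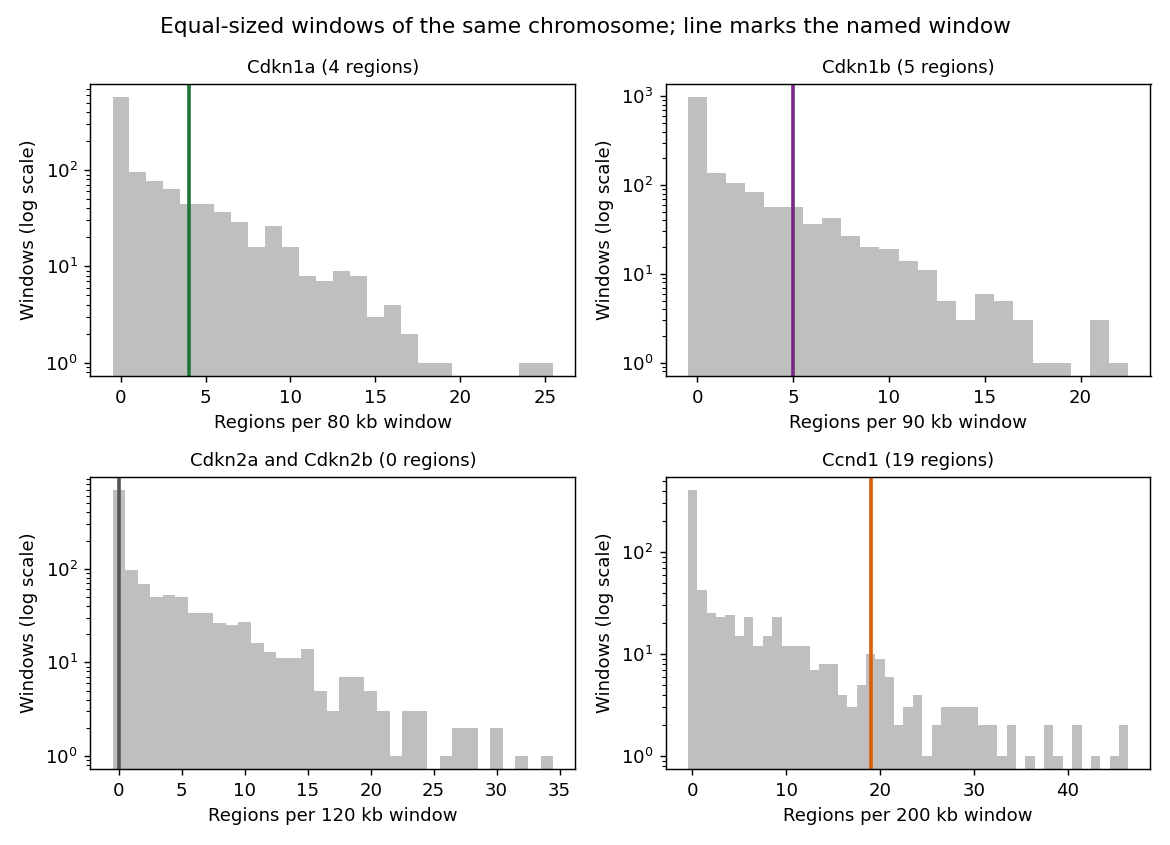
Each panel counts windows of the same size on the same chromosome (y axis, log scale) by the number of regions they hold (x axis), and the coloured line marks the named window. The line stands at 4 for Cdkn1a, 5 for Cdkn1b, 0 for Cdkn2a and Cdkn2b, and 19 for Ccnd1, where 8.87% of windows held as many or more.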

How the data were processed

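The deposited data were 1 list of regions. CASAVA 1.7.0, BWA 0.5.9, SAMtools, MACS 1.4.0rc2 and build mm9 are named in the submitters' processing notes. MACS was run with SAHA reads as the ChIP file, DMSO reads as the control, a p cutoff of 1e-05 and at most 3 duplicate tags per position, per the file headers. The deposited tags are whole counts of SAHA tags, the deposited score is 10 times the −log10 of a p-value, the deposited fold is a ratio and the deposited FDR is a percent. The authors scaled the smaller library to the larger, per the file headers, so a change over the whole genome would not show.

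The local DMSO level was computed as the Poisson mean that gives the listed score. It equalled a possible background of the caller within the rounding of the score (0.005) in 75.8% of 61106 regions, against 2.65% when the backgrounds were moved by 0.5 steps. Scores of 3000 or more were not inverted. Equal-sized windows were laid outward from each named window over the span of listed regions. Python 3.11.15, numpy 2.4.6, scipy 1.17.1, pandas 2.3.3 and matplotlib 3.10.9 were used.

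No test was made, since each group was 1 library. By rule, the region of highest fold, the longest and the one with the most tags in each window were named (Cdkn1a D, Cdkn1b B and E, Ccnd1 N). All other regions named were chosen after their values were seen. The members and lists were chosen with earlier results of these data known. Lists of other cell cycle genes and of osteoblast markers were not analysed here, since they need an mm9 annotation.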

Additional observations from a re-analysis of the deposited data

How the results depend on the processing

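No paired analysis was possible because each group was 1 library. Of 98 alternative values, 47 stayed within an interval set around the reported value (for region counts, within 1.5 times) and 51 moved. The interval was Poisson for tags per kb and, from the median tag count, for ratios. It was binomial over bases for covered shares and over windows for shares of windows. Neighbouring bases and windows are not independent, so this tally depends on how narrow each interval is. The 0 regions at Cdkn2a and Cdkn2b stayed at 0 under every alternative tried, but none of these could have changed it. A stricter score, regions wholly inside, joining and a narrower window cannot add regions to an empty window. The wider window stopped short of the nearest regions, 117 kb and 170.0 kb away. At a score of at least 100, Cdkn1a kept 2 regions and Cdkn1b 3, the covered shares were 1.93%, 5.35% and 29.9% (Cdkn1a, Cdkn1b, Ccnd1), the pooled densities 332 tags per kb at Cdkn1a and 284 at Ccnd1, and the shares of windows with as many regions 28.7% for Cdkn1a and 6.32% for Ccnd1, with 60.6% of chromosome 4 windows empty. With regions wholly inside the window, Cdkn1b had 3 regions, 3.30% covered, 184 tags per kb and 23.5% of windows with as many, and Cdkn1a had 139 tags per kb and 28.9% of windows with as many. In windows 0.5 times as wide, 0 regions were left at Cdkn1a (0% covered, as in 63.1% of such windows), 1 at Cdkn1b (1.87%, 194 tags per kb, 30.9% of windows) and 11 at Ccnd1 (26.8%, 206 tags per kb), and 63.6% of such windows on chromosome 4 were empty. In windows 2 times as wide there were 11 regions at Cdkn1a (22.9% covered, 17.4% of windows), 9 at Cdkn1b (12.2%, 222 tags per kb) and 33 at Ccnd1 (23.1%, 252 tags per kb), and 44.9% of windows on chromosome 4 were empty. Joining regions across 1 kb left 10 at Ccnd1 and put 18.0% of windows at or above Cdkn1a. Among windows with at least 1 region, 52.1%, 39.8% and 19.5% held as many as Cdkn1a, Cdkn1b and Ccnd1. Over all autosomes the shares were 21.6% for Cdkn1a and 19.5% for Cdkn1b. The median density in place of the pooled one was 144 tags per kb at Cdkn1a and 174 at Ccnd1. Without its longest region, an alternative added after the data were seen, Ccnd1 had 204 tags per kb and 18.0% covered. Without depth scaling each median ratio was larger by the factor of 1.62, at 2.96, 2.64 and 3.07. The pooled density at Cdkn1a and the covered shares of Cdkn1a and Cdkn1b thus rest on where the window edges lie. For the remaining shifts the cause was not tested. The unequal loss of duplicates cannot be undone from the list.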
